A study of Mus musculus with 6 samples.

Results

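The cyclins, kinases, inhibitors and E2F factors that time exit from the cell cycle in G1 were followed in erythroblasts cultured with or without added cholesterol. The 10 genes were chosen by symbol as known G1 regulators of erythroid cells: the D-type cyclins Ccnd2 and Ccnd3, the kinases Cdk4 and Cdk6, the inhibitors Cdkn1b, Cdkn2c and Cdkn2d, the pocket protein gene Rb1, and the transcription factors E2f2 and E2f4. All 10 were found among the 17463 genes of the deposited tables, and all 10 were among the 11277 genes with enough reads to be tested. The starting cells were fetal liver erythroblasts from C57BL/6J mice that did not yet carry TER119, a surface protein gained during erythroid maturation. They were grown for 30 h in medium with erythropoietin (Epo), with 40 µM cholesterol in the cholesterol group and none added in the control group. The methods of the study add that cells which had become TER119+ were then sorted, a step that the sample labels leave out. Each group held 3 RNA-seq libraries, numbered 1 to 3, and neither source says what the numbers stand for or whether same-numbered libraries shared a culture. The p-values below therefore measure the spread between these libraries, which may be technical. In bulk RNA, fewer cells of a type and less RNA per cell cannot be told apart.

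In G1, D-type cyclins bind CDK4 and CDK6, and the active kinases phosphorylate the RB protein and its relatives. Phosphorylated RB releases E2F factors, which then drive the genes of DNA replication. INK4 proteins, among them p18 (Cdkn2c) and p19 (Cdkn2d), block CDK4 and CDK6 directly, and p27 (Cdkn1b) blocks cyclin-CDK complexes more broadly. Erythroblasts divide a limited number of times and leave the cycle before the nucleus is expelled, and in this lineage the decline of CDK6 and the accumulation of p27 are known to go with maturation. The comparison asks whether added cholesterol changed the transcripts of this machinery after 30 h.

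None of the 10 G1 regulators was called different with cholesterol by edgeR's quasi-likelihood test with Benjamini-Hochberg adjustment over all genes tested. With condition alone in the model, 0 of the 10 were called at an adjusted p under 0.05, where 0.00887% of all genes were called. At an unadjusted p under 0.05 the counts were 0 of the 10 members, against 81 genes higher and 216 lower among the 11277 tested. With the replicate number added to the model as a block, 0 members were called higher (1.65% of all genes) and 0 lower (5.2%). The 3 control and the 3 cholesterol values overlapped for each of the 10 genes. The groups stood apart for only 7.99% of all genes tested, so 0 of 10 members is near that share. In the model with the block, the 95% interval of each gene's change bounded it to a fold of at most 1.06 for Ccnd3 and at most 1.24 for Cdkn1b, the narrowest and the widest of the 10. Without the block the corresponding bounds ran from 1.2-fold to 1.79-fold, with the widest for Cdk6.

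**Figure D1:**
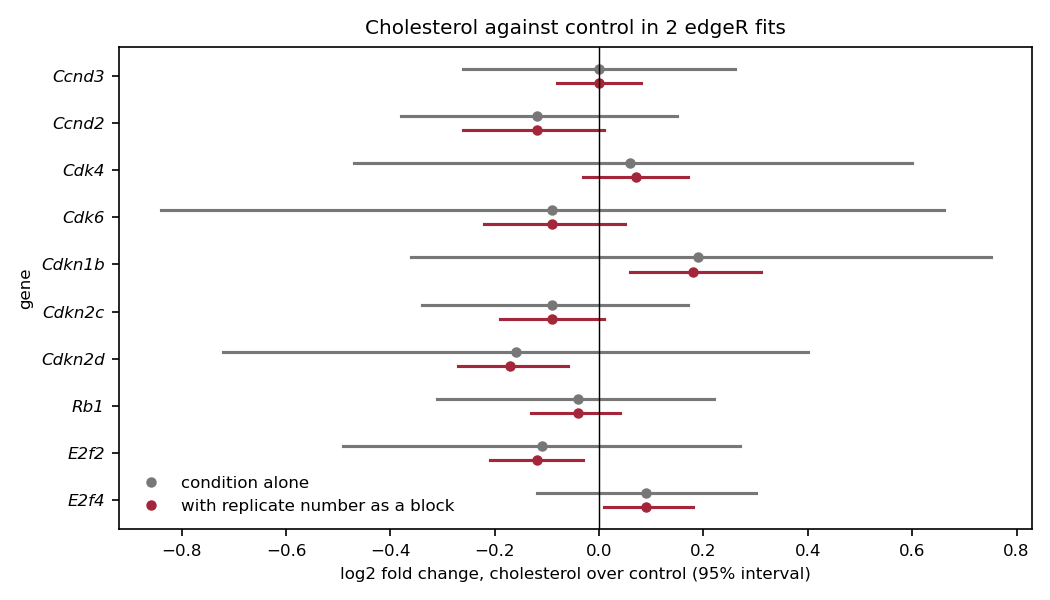
The log2 fold change of cholesterol over control (x axis) is drawn for each of the 10 genes (y axis), with the 95% interval as a bar, from the edgeR model with condition alone (grey) and from the model that adds the block (red). Grey intervals all include 0, and red intervals leave out 0 for Cdkn1b and E2f4 on the higher side and for Cdkn2d and E2f2 on the lower side, none of which passed the adjusted test.

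Levels of different genes were set side by side per transcript length, as the deposited FPKM. Ccnd3 stood far above the rest, at 810 to 1052 FPKM over the 6 libraries. E2f4 followed at 190 to 249 FPKM and overlapped with E2f2 at 175 to 240 FPKM. Cdk4, at 91.1 to 156 FPKM, overlapped with Rb1 at 99.2 to 121 FPKM. The INK4 genes Cdkn2d (47.9 to 80.8 FPKM) and Cdkn2c (41.4 to 50.5 FPKM) came next and overlapped with each other. Below them, without overlap between neighbours, came Cdkn1b at 14.9 to 26.1 FPKM, Ccnd2 at 5.17 to 6.48 FPKM and Cdk6 at 1.43 to 2.88 FPKM. Among the members, the cyclin transcripts were thus mostly Ccnd3 and the kinase transcripts mostly Cdk4. The ratio of Ccnd3 to Ccnd2 FPKM lay between 130.0 and 203, and that of Cdk4 to Cdk6 between 49.9 and 67.8.

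**Figure D2:**
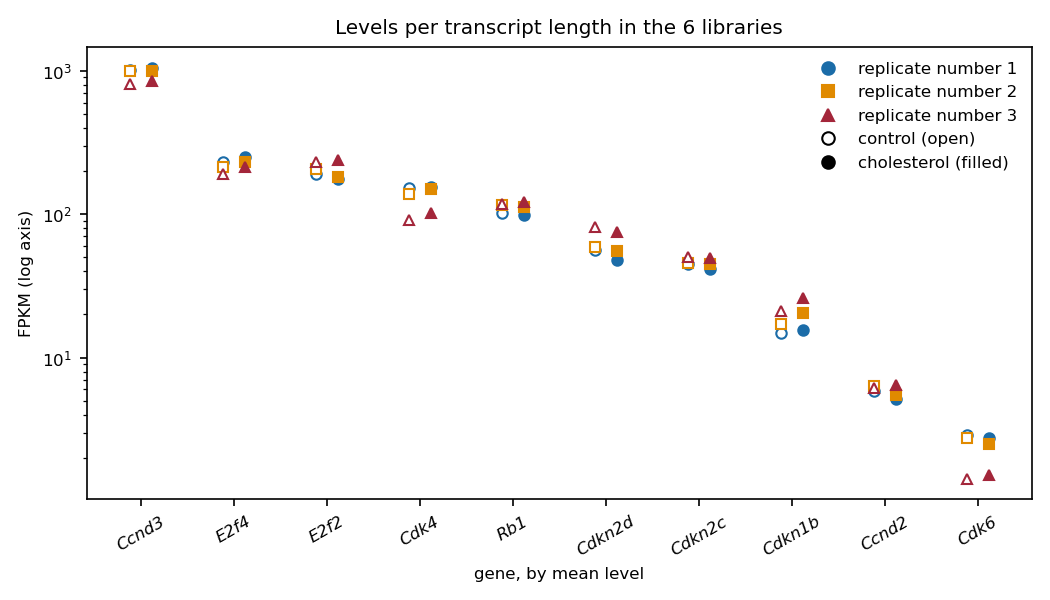
FPKM (y axis, log scale) is plotted for each gene (x axis, by mean level) in the 3 control (open symbols) and 3 cholesterol libraries (filled symbols), with the replicate number as symbol shape and colour. Ccnd3 lies highest at 810 to 1052 FPKM and Cdk6 lowest at 1.43 to 2.88 FPKM, and the open and filled symbols of a number lie close together.

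Ccnd3, which encodes cyclin D3, is known to set how many divisions erythroblasts make before they leave the cycle. It lies at chr17:47505051-47599691 on the plus strand (GRCm38, GENCODE M21). TMM-normalized CPM, that is, counts scaled to a common library size, were 1952, 1837 and 1580 in control libraries 1 to 3 and 1920, 1826 and 1606 in cholesterol libraries 1 to 3. Same-numbered libraries were close, and the pair numbered 3 was lowest in both groups. The group means were 1790 ± 190 and 1784 ± 161 CPM (SD, n = 3 in each), a log2 fold change of 0.00 with a 95% interval of −0.26 to 0.26, and of −0.08 to 0.08 with the block. The sign of so small a change was not fixed, since it was 0.03 with total counts in place of TMM. A pseudogene of the same gene, Ccnd3-ps, is annotated, and Ccnd3 shares 4.11% of its exonic bases with Bysl on the other strand. How strand and near-identical copies were handled in counting is not given in the sources used here.

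Ccnd2 encodes cyclin D2, a D-type cyclin of many proliferating cells, at chr6:127125162-127152193 on the minus strand. It was measured at 36.3, 37.9 and 39.1 CPM in control libraries 1 to 3 and at 31.1, 33.4 and 40.1 CPM with cholesterol. The first and second pairs were lower with cholesterol and the third slightly higher, and the groups overlapped. The log2 fold change was −0.12 (standard error, SE, 0.11), and −0.12 (SE 0.06, adjusted p = 0.304 in edgeR's test) with the block.

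Cdk4, the more abundant partner kinase of the D-type cyclins, lies at chr10:127063534-127067920 on the plus strand. Its values were 209, 181 and 127 CPM in control libraries 1 to 3 and 202, 196 and 139 CPM in cholesterol libraries 1 to 3. The libraries numbered 3 were lowest in both groups, by far more than cholesterol and control differed within a number. Cholesterol gave a log2 fold change of 0.06 (SE 0.22), and 0.07 (SE 0.05, adjusted p = 0.45 in edgeR's test) with the block. Of the exonic bases of Cdk4, 19.7% are shared with Tspan31 on the other strand, which was measured at 24.9 to 29.6 CPM, so reads of the shared bases may belong to either gene if counting ignored strand.

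The upstream stretch of Cdk4 is shown because it carried more copies of a single motif than any other member's window. RefSeq promoter windows (GRCm38.p6, from 250 bases before to 50 after each start) were matched for 7 of the 10 genes (all but Ccnd2, E2f4 and Rb1). Searched on both strands, with overlaps between motifs kept, were the E-box CACGTG, which MYC and related factors are known to bind, E2F forms (TTTGGCGC, TTTCCCGC, TTTCGCGC or TTTGCCGC), a KLF form (CCNCACCC), GATA forms (AGATAA or TGATAA) and CCAAT. The Cdk4 window held 4 E-boxes, whose first bases lie at −172, −118, −98 and −11 from the start. At least 1 E-box occurred in 7.15% of the 32851 windows and at least 4 in 0.0244%, or 8 windows. Here the 250 bases before the start, chr10:127063285-127063534 on the plus strand, are given 5′ to 3′ with the E-boxes in capitals.
Cdk4 upstream: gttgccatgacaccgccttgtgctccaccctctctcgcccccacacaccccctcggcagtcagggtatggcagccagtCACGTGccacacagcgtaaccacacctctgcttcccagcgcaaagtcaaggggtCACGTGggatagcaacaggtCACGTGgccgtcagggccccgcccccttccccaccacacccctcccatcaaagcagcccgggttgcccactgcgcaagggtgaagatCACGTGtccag
Cdk6 and Cdkn2c had 1 E-box each, at −220 and 34 from a start. The KLF form occurred once, in the Cdk4 window (16.6% of all windows), the GATA forms in no member's window (18.6%) and CCAAT in windows of 5 members (37.4%). A match is a string of letters and was not tested as a binding site.

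Cdk6 encodes the kinase whose decline accompanies erythroid maturation, and lies at chr5:3341485-3531008 on the plus strand. It was measured at 34.6, 32.0 and 17.6 CPM in control libraries 1 to 3 and at 31.8, 29 and 18.1 CPM with cholesterol. As for Cdk4, the libraries numbered 3 stood well below the others in both groups. For cholesterol over control it came to −0.09 on the log2 scale (SE 0.31), and −0.09 (SE 0.07, adjusted p = 0.534 in edgeR's test) with the block. Cdk6 had the fewest reads of the 10 genes, with 340 counts in its lowest library, whereas Ccnd3 had up to 38956.

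Cdkn1b encodes p27, which accumulates as cells leave the cycle, at chr6:134920401-134925513 on the plus strand. Control libraries 1 to 3 held 37.1, 41.2 and 53.7 CPM, and cholesterol libraries 1 to 3 held 37.1, 49.3 and 64.6 CPM. In the pair numbered 1 the log2 difference rounded to 0.00, and in the other two the cholesterol library was higher. Its log2 fold change was 0.19 (SE 0.23), and 0.18 (SE 0.06, adjusted p = 0.0785 in edgeR's test) with the block, the largest estimate of the 10 in the latter model. With the block, the adjusted p was 0.0283 when both libraries numbered 1 were left out (log2 fold change 0.27) and 0.049 with total counts in place of TMM (0.21), so its call depended on these choices, which were tried after the data were seen.

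The INK4 genes Cdkn2c (chr4:109660876-109667189) and Cdkn2d (chr9:21288410-21291407), both on the minus strand, encode p18 and p19. Cdkn2d was measured at 72.1, 73.7 and 107 CPM in control libraries 1 to 3 and at 59.3, 68.9 and 97.4 CPM with cholesterol. In all 3 pairs the cholesterol library was lower, while the groups overlapped because the libraries numbered 3 were highest. Its log2 fold change was −0.16 (SE 0.23), and −0.17 (SE 0.05, adjusted p = 0.0527 in edgeR's test) with the block. Cdkn2c stood at 87.2, 84.4 and 99.7 CPM in control and at 76.8, 83.9 and 94.8 CPM with cholesterol. It too was lower in 3 of 3 pairs, by little in the second, with a log2 fold change of −0.09 (SE 0.05, adjusted p = 0.343) with the block. Being lower in all 3 pairs was common, as it held for 20.1% of all genes tested, and it held for 2 of the 10 members. Being higher in all 3 pairs held for 19.9% of all genes and for another 2 members, E2f4 and Cdkn1b, the latter counted although its first pair was higher by an amount that rounded to 0.00.

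Rb1 encodes the RB protein that the cyclin D kinases phosphorylate, and lies at chr14:73183673-73325822 on the minus strand. It was measured at 484, 539 and 577 CPM in control libraries 1 to 3 and at 456, 520 and 577 CPM with cholesterol. The difference within a number was small beside the difference between numbers, and the log2 fold change was −0.04 (SE 0.04, adjusted p = 0.603 in edgeR's test) with the block. Rb1 shares 8.11% of its exonic bases with Rcbtb2 and 6.78% with Lpar6 on the other strand, both measured at far lower levels of at most 5.45 CPM.

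E2f2 encodes an activating E2F factor that is abundant in erythroblasts, at chr4:136172394-136196057 on the plus strand. Its values were 900, 938 and 1114 CPM in control libraries 1 to 3 and 792, 826 and 1116 CPM in cholesterol libraries 1 to 3. The pairs numbered 1 and 2 were lower with cholesterol by 0.18 each on the log2 scale, and the pair numbered 3 was level. On the log2 scale the change was −0.11 (SE 0.16), and −0.12 (SE 0.04, adjusted p = 0.107 in edgeR's test) with the block. Without the libraries numbered 3, a setting tried after the data were seen, the model with the block called E2f2 lower (log2 fold change −0.19, adjusted p = 0.000565) and Cdkn2d lower (−0.19, adjusted p = 0.0217). The first of RefSeq's E2f2 windows holds 1 E2F form, found in 2.26% of all windows, 39 bases after its RefSeq start. That RefSeq start lies before the GENCODE start given above, so the match is upstream of the gene as annotated there. Shown 5′ to 3′ are 30 bases around it, chr4:136172294-136172323 on the plus strand, with the match in capitals.
E2f2 near start: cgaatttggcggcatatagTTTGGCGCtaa

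E2f4, at chr8:105297663-105305370 on the plus strand, encodes the E2F factor that with pocket proteins mainly represses transcription and that erythroid progenitors are known to need. Control libraries 1 to 3 held 474, 424 and 399 CPM and cholesterol libraries 1 to 3 held 491, 456 and 437 CPM. The cholesterol library was higher in each pair, by 0.05, 0.10 and 0.13 on the log2 scale, and the groups overlapped. The log2 fold change was 0.09 (SE 0.09), and 0.09 (SE 0.04, adjusted p = 0.187 in edgeR's test) with the block. At an unadjusted p under 0.05 the model with the block held 4 of the 10 members. Of these, Cdkn1b and E2f4 were higher and Cdkn2d and E2f2 lower. Among the 11277 genes tested, 902 were higher and 1311 lower by the same rule.

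**Figure D3:**
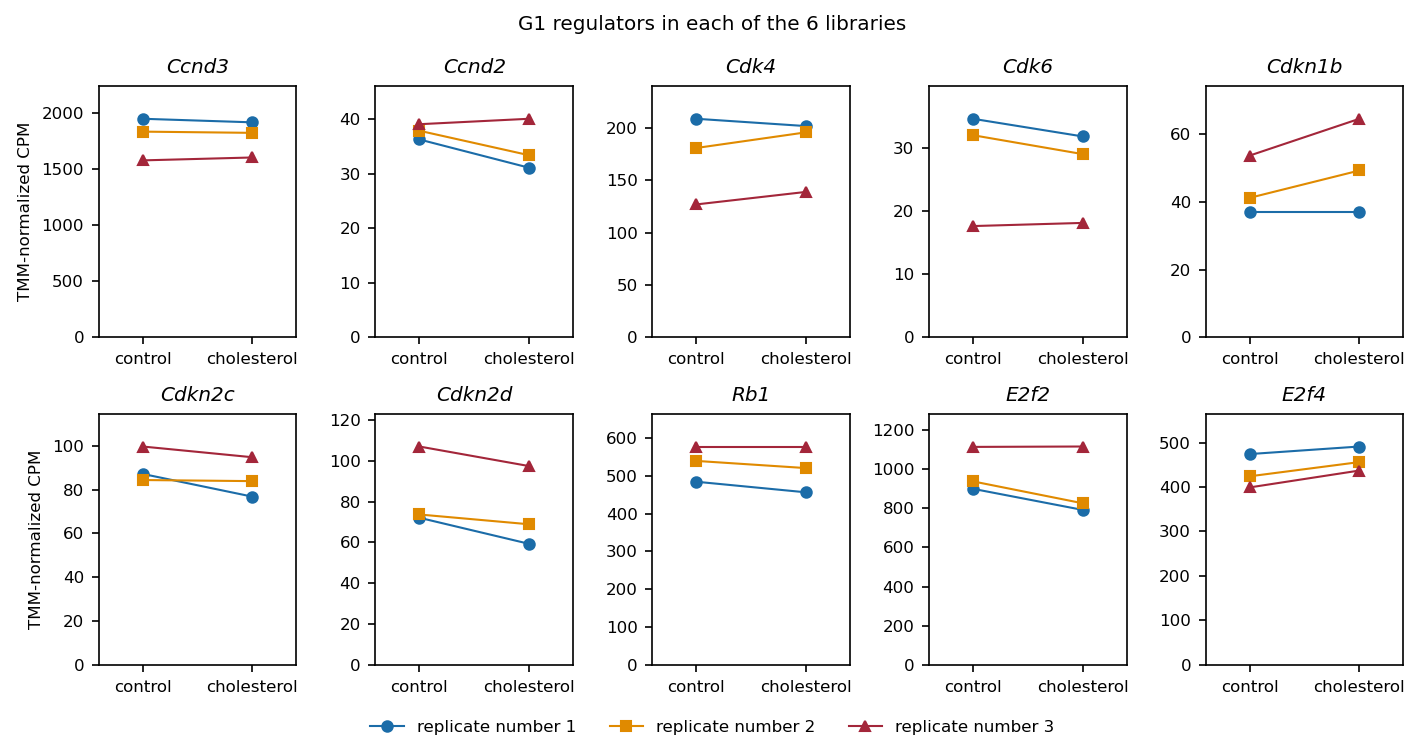
TMM-normalized CPM (y axes, from 0) is plotted for the 10 genes in the control and cholesterol libraries, with a line joining the libraries of each replicate number. Control and cholesterol values overlap in every panel, and the lines of number 3 lie lowest for Ccnd3, Cdk4, Cdk6 and E2f4 and highest for the other 6 genes.

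The 10 genes differed more between the libraries numbered 3 and those numbered 1 than between treatments. In a joint test of the replicate number in the edgeR model with the block, chosen after the values were seen, 10 of 10 members had an adjusted p under 0.05, where 46.3% of all genes tested did. Libraries numbered 3 were lower than those numbered 1 for Cdk6 by a log2 difference of −0.89 (SE 0.08), for Cdk4 by −0.63 (0.06), for Ccnd3 by −0.28 (0.05) and for E2f4 by −0.21 (0.05). They were higher for Cdkn1b by 0.67 (0.07), for Cdkn2d by 0.64 (0.06), for E2f2 by 0.40 (0.05), for Rb1 by 0.30 (0.05), for Cdkn2c by 0.25 (0.06) and for Ccnd2 by 0.24 (0.08). Both kinases were thus lower, and all 3 inhibitors higher, in the libraries numbered 3 than in those numbered 1. The adjusted p of the number ranged from 1.03e-07 for Cdk4 to 0.0449 for Ccnd2. In all 10 members the difference between numbers 3 and 1 was larger than that of cholesterol, as it was for 79.8% of all genes tested. Between numbers 2 and 1 the difference was larger than that of cholesterol for 6 of the 10 members (58.6% of all genes), from −0.13 for Cdk4 and E2f4 to 0.28 for Cdkn1b, and smaller for Ccnd2 (0.08), Cdkn2c (0.04), Cdkn2d (0.12) and E2f2 (0.06). The median size of the difference between numbers 3 and 1 was 0.35 for the members and 0.27 for all genes, whereas the median size of the cholesterol difference was 0.09 for the members and 0.09 for all genes.

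**Figure D4:**
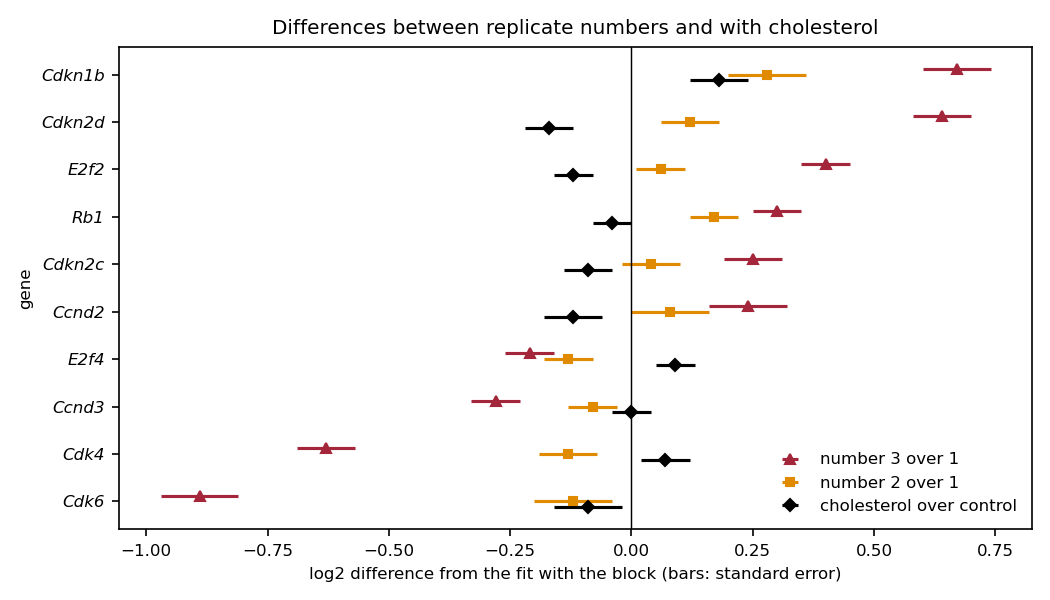
For each gene (y axis), the log2 difference of number 3 over 1 (red triangles), of number 2 over 1 (orange squares) and of cholesterol over control (black diamonds) is shown with its SE, from the edgeR model with the block (x axis). The red triangles run from −0.89 for Cdk6 to 0.67 for Cdkn1b and lie farther from 0 than the black diamonds for each gene.

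The balance of inhibitors and kinases restates these member values as ratios, as a description with no test, and adds no separate evidence. The summed FPKM of Cdkn1b, Cdkn2c and Cdkn2d was 0.742, 0.872 and 1.65 times that of Cdk4 and Cdk6 in control libraries 1 to 3 and 0.661, 0.795 and 1.45 times with cholesterol. The libraries numbered 3 stood apart in both groups. In each pair the cholesterol library had the lower ratio, by −0.17, −0.13 and −0.18 on the log2 scale. The share of such ratios lower in all pairs was not computed. Within the inhibitor sum Cdkn1b went the other way, from 14.95, 17.14 and 21.15 FPKM in control to 15.53, 20.6 and 26.06 FPKM with cholesterol. The ratio of E2f2 to E2f4 FPKM, which was not among the ratios planned, was 0.828, 0.972 and 1.22 in control. With cholesterol this ratio was 0.705, 0.79 and 1.12. It was again highest in number 3 and lower with cholesterol in each pair. Within the INK4 family the ratio of Cdkn2d to Cdkn2c was 1.24, 1.29 and 1.6 in control and 1.16, 1.23 and 1.54 with cholesterol. The ratio of Cdk4 to Cdk6 was higher with cholesterol in each pair, by 0.10, 0.26 and 0.09 on the log2 scale. That of Ccnd3 to Ccnd2 differed by 0.22, 0.19 and −0.01.

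Other values moved with the replicate number in the same libraries. Summed CPM of 10 granulocyte markers was 71.2, 255 and 677 in control libraries 1 to 3 and 41.0, 110.0 and 282 with cholesterol, and 10 of the 10 were called higher in number 3 and, with the block, lower with cholesterol. Macrophage markers, of which 7 of 8 were tested, summed to 18.1, 41.4 and 128 CPM in control and 13.3, 19.1 and 56.4 CPM with cholesterol. Mast cell and basophil markers, of which 2 of 8 were tested and Tpsb2 was at 0 in every library, summed to 1.47 to 18.5 CPM in control and 0.493 to 2.86 CPM with cholesterol. Markers of megakaryocytes (61.4 to 76.4 CPM in control, 58.7 to 66.0 with cholesterol), hepatocytes (121 to 355, 84.1 to 299) and endothelium (1.52 to 5.81, 1.23 to 2.81) were also present. Globin genes took 12.5% to 17.9% of counts, most in the libraries numbered 3, matching the labelled identity. Enough reads to be tested, as 12 of 12 erythroid markers had, is no sign of identity. All listed granulocyte, megakaryocyte and hepatocyte markers had them too. The erythroid markers also moved with treatment: 12 of the 12 were lower on average with cholesterol, 11 of them in all 3 pairs. With the block 4 of them were called lower. These were the transferrin receptor gene Tfrc (−0.16 on the log2 scale), the heme synthesis gene Alas2 (−0.14) and the globin genes Hba-a2 (−0.26) and Hbb-bs (−0.17). The globin share was 14.6%, 13.8% and 17.9% in control libraries 1 to 3 and 12.5%, 13.0% and 16.2% with cholesterol, lower in each pair. Total counts were alike, from 19826797 to 20061702 per library, so that 3 counts came to about 0.15 CPM. The part of these cell types, and of erythroid maturity, in the values of the G1 regulators was not tested.

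The genes around the 10 regulators were taken from lists of the G1/S pathway. With condition alone, 0 genes of any of these lists were called, so the calls below come from the edgeR model with the block. Among 8 other G1 cyclins and CDKs tested, 1 was higher and 0 lower. This was Ccne2, a cyclin E that partners CDK2, at 121, 122 and 128 CPM in control libraries 1 to 3 and 124, 153 and 153 CPM with cholesterol (log2 fold change 0.20, SE 0.05, adjusted p = 0.0332). Its adjusted p was 0.282 without the libraries numbered 2 and 0.14 in DESeq2 with the block.

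Of 5 other CDK inhibitors, 3 had enough reads to be tested, and 1 was lower. Cdkn1a, which encodes p21, an inhibitor of cyclin-CDK complexes and a target of p53, fell in 3 of 3 pairs. It was measured at 467, 518 and 596 CPM in control and at 383, 424 and 455 CPM with cholesterol, so the groups did not overlap. The log2 fold change was −0.32 (SE 0.04, adjusted p = 5.61e-05), and the adjusted p stayed at or below 0.00207 when the libraries of any 1 number were left out. With condition alone it was −0.32 (SE 0.11, adjusted p = 1).

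Of 10 other E2F, DP and pocket protein genes, 0 were called and 8 were higher on average, with a median log2 fold change of 0.09 against 0.01 over all genes tested. E2f8, an atypical repressor E2F, had the smallest p with condition alone, with a log2 fold change of 0.11 (SE 0.08). It was at 530, 544 and 514 CPM in control and 537, 556 and 626 CPM with cholesterol. The change was 0.05 without cholesterol library 3 and 0.16 without cholesterol library 1. E2f5, a repressor E2F of low level, was next in the model with condition alone, at −0.27 (SE 0.19). With 1 sample left out it ran from −0.37 to −0.14. Among 6 genes of the DREAM and MuvB core, 0 were called. Its MuvB proteins pair with E2F4 and pocket proteins or with B-MYB (Mybl2) at cell cycle genes. The smallest p with condition alone belonged to Lin52 at 0.14 (SE 0.12) and Mybl2 at 0.06 (SE 0.07). With 1 sample left out, Lin52 ran from 0.07 to 0.24 and Mybl2 from 0.0071 to 0.10. Among 13 genes for the turnover of G1 regulators 0 were called. In that list Cks1b, a cofactor in the degradation of p27, was at 75.9, 73.2 and 78.5 CPM in control and 70.7, 64.8 and 70.6 CPM with cholesterol, lower in 3 of 3 pairs and without overlap of the groups, with a log2 fold change of −0.14 (SE 0.07) with condition alone and of −0.14 (SE 0.05, adjusted p = 0.0882) with the block. Ambra1, a ubiquitin ligase adaptor for D-type cyclins, had a log2 fold change of 0.15 (SE 0.09) with condition alone. For Ambra1 this ran from 0.09 to 0.21 with 1 sample left out.

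Genes that E2F factors are known to drive at the start of DNA replication were not called either, 0 of 18, although 17 of the 18 were higher on average with cholesterol. Of these, 12 were higher in all 3 pairs and 1 lower, beside the 19.9% and 20.1% of all genes given above, and the list's median log2 fold change was 0.09 against 0.01 over all genes. Cdc6, which loads the replicative helicase, was measured at 239, 237 and 216 CPM in control and 239, 265 and 271 CPM with cholesterol, with a log2 fold change of 0.17 (SE 0.05, adjusted p = 0.0946) in the model with the block. Without the libraries numbered 1 that model called it (0.25, adjusted p = 0.0222), and without those numbered 3 the value was 0.08 (adjusted p = 0.391). Cdt1, its partner in licensing, stood at 0.15 (SE 0.07, adjusted p = 0.254) with the block, at 0.23 without the libraries numbered 1 and at 0.04 without those numbered 3. In the test of the replicate number 8 of the 18 were called, all lower in number 3 than in number 1, a share near the 46.3% of all genes.

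Among 14 erythroid and progenitor regulators of the G1 genes, 1 was called higher and 2 lower with the block. Gata2, a transcription factor of progenitors and mast cells, fell from 6.22, 5.60 and 12.3 CPM in control to 2.37, 2.57 and 2.76 CPM with cholesterol, a log2 fold change of −1.59 (SE 0.19, adjusted p = 6.97e-05), and DESeq2 called it without the block as well (adjusted p = 0.0133). Kit, the stem cell factor receptor of progenitors and mast cells, fell from 2.58, 2.82 and 3.48 CPM to 1.97, 1.38 and 1.02 CPM (−1.02, SE 0.27, adjusted p = 0.0255), a call lost without the libraries numbered 2 (adjusted p = 0.19) or 3 (0.171), with total counts in place of TMM (0.0511) and in DESeq2 with the block (0.266). The mast cell and basophil markers, given above, were lower in the same libraries, and their part in both values was not tested. Ldb1, an adaptor of GATA1 complexes, rose from 198, 190 and 158 CPM to 231, 219 and 177 CPM (0.20, SE 0.04, adjusted p = 0.00611), and its adjusted p was 0.0669 without the libraries numbered 1 and 0.0683 without those numbered 2.

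**Figure D5:**
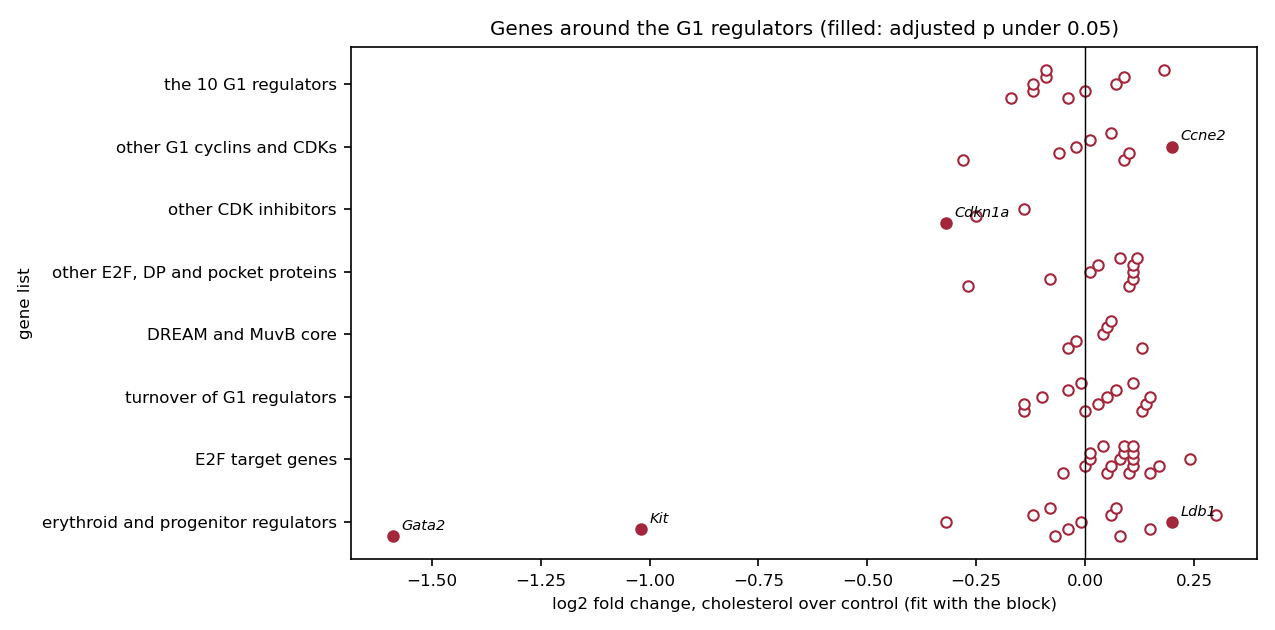
Each point is a gene of the list named on the y axis, at its log2 fold change of cholesterol over control from the edgeR model with the block (x axis), and filled points have an adjusted p under 0.05. The 10 G1 regulators hold no filled point, and the 5 filled points of the other lists are Ccne2, Cdkn1a, Gata2, Kit and Ldb1.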

How the data were processed

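Per the labels, polyadenylated RNA of 6 samples was sequenced with single-end reads of 50 bases. The submitters' processing notes name HISAT2 2.0.4, Bowtie2 2.2.5, RSEM 1.2.12, DESeq2 1.4.5 and the GRCm38.p6 build, with no role for each. The authors deposited expected counts, estimated per gene and not normalized, of which 27.9% to 29.5% per sample were not whole, and a second table of normalized values, which the authors left without a unit and which correspond to FPKM. Depth is given in the report, and counting error alone limits values near 3 counts.

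Expected counts were rounded and tested in R 4.3.3 with edgeR 4.0.16 (filterByExpr with at least 10 counts, TMM, robust quasi-likelihood test, Benjamini-Hochberg adjustment over 11277 genes). The tests had been planned for whole counts. Standard errors came from the F statistic. The labels do not say that same-numbered samples are pairs, so pairing was checked in these data. After subtraction of the group means, same-numbered samples correlated at 0.689, 0.3 and 0.798 for numbers 1 to 3. Samples with other numbers correlated at −0.764 to 0.298, the latter for control 1 with cholesterol 2. Number 2 thus matched hardly better than that, and the check does not settle its pairing. Every same-numbered value was over 0.1, so the model with the number as a block stands beside the model with condition alone. With 3 samples a group, the smallest p of an exact permutation test for any gene is 0.1, and none was run. No library was a copy of another (chi-square per degree of freedom of at least 8.2).

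Alternatives were DESeq2 1.42.0, limma 3.58.1 on log2(FPKM + 1) and log2(FPKM + 0.1), other filters and scalings, and samples left out. Of 17463 symbols, 17322 matched RefSeq, and coordinates are those of GENCODE M21 on GRCm38. The 10 genes and the lists were chosen with earlier results of these data known. From each list, the genes called in either model were named, or otherwise the 2 with the smallest unadjusted p with condition alone.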

Additional observations from a re-analysis of the deposited data

How the results depend on the processing

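Under the replicate block, 186 genes were called higher and 586 lower, against 1 and 0 with condition alone, while the members called stayed at 0 in both directions. DESeq2 called 3 genes higher and 28 lower, and 41 and 248 with the replicate block, with 0 members in each. Leaving out 1 sample at a time, which leaves its same-numbered partner alone, gave 1 gene higher and 0 to 7 lower, with 7 without control replicate 3. Leaving out both samples of a number, or changing the scaling, in the model with the block was chosen after the data were seen. Without both samples numbered 1, 2 and 3 in turn, 118, 67 and 210 genes were higher and 703, 229 and 516 lower. Of the members, 1 was higher without number 1 (Cdkn1b) and 2 were lower without number 3 (Cdkn2d and E2f2). With the block and globin genes left out of the scaling, 178 genes were higher and 562 lower. With the block and total counts in place of TMM, 277 were higher and 436 lower, with 1 member higher (Cdkn1b, 0.21, adjusted p = 0.049). Of 90 log2 fold changes of members under the planned settings that keep all samples, 87 kept their sign, and the 3 that did not were those of Ccnd3, at 0.03 with total counts in place of TMM and in limma with either pseudocount. With the block, Ccnd3 was at 0.01 without number 1, 0.00 without number 2 and 0.03 without TMM. When 1 sample was left out, 13 of 60 values changed sign, in 6 members, and none was called: the range was −0.09 to 0.07 for Ccnd3, −0.34 to 0.12 for Cdk6, −0.12 to 0.23 for Cdk4, −0.39 to 0.05 for Cdkn2d, −0.12 to 0.04 for Rb1 and −0.02 to 0.37 for Cdkn1b. The other 4 members kept their sign but also moved widely, with −0.28 to −0.01 for E2f2, −0.23 to −0.04 for Ccnd2, −0.17 to −0.01 for Cdkn2c and 0.04 to 0.17 for E2f4. Changing the scaling moved the median of all genes to at most 0.04 on the log2 scale.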
